A study of Homo sapiens with 12 samples.

Results

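RHOXF1 and RHOXF2 are the human genes of the RHOX (reproductive homeobox) cluster on the X chromosome. Their RNA was followed here in Colo320DM, an established human colorectal cancer line, with and without the demethylating drug 5-aza-2'-deoxycytidine (5-aza-dC). The members were all probes of the array whose gene name starts with RHOXF. These were 2 genes of 23594 with a symbol, each with 1 of the 50599 probes. They were selected on the increase of RHOXF2 after 5-aza-dC, one of the largest on the array, so that the change of both with the drug is given below as a description, without a test. The arrays compared 4 groups of 3. Control clones carried the plasmid pcDNA6.2-GW/EmGFP-miR-neg, and TET1 knockdown clones a vector with an artificial miRNA against TET1, the dioxygenase that oxidizes 5-methylcytosine. Every clone had been selected with G418. Each of the 6 clones gave 1 array of mock-treated cells and 1 of cells kept in 1 µM 5-aza-dC for 72 h. According to the study's text, the first and the second knockdown clones carried one artificial miRNA and the third clone another. All clones derive from a single tumor line.

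The RHOX genes encode homeodomain transcription factors of the paired-like class, which bind DNA through a helix of the homeodomain. In mammals they are expressed mainly in testis, ovary and placenta, and they are known as genes whose promoters are methylated in most somatic tissues. 5-aza-dC is incorporated into DNA, traps DNA methyltransferases and thereby lowers methylation during replication. DNA methylation itself was not analyzed here, and RNA levels alone do not show the methylation state of these genes.

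The 2 probes read the members in different ways, and their sequences show what each can and cannot tell. The RHOXF1 probe spans a splice junction on the minus strand and is placed by the array design at chrX:119243214-119246791 (hg19). A reading frame without a stop codon runs through its 60 bases. The capitals below mark the codons of a tryptophan, phenylalanine, any residue and asparagine, a stretch that homeodomains carry in the helix that contacts DNA. The RHOXF2 probe lies on the plus strand at chrX:119297862-119297921 (hg19), at the 3′ end of the transcript. Its last 30 bases are shown, with the polyadenylation signal in capitals.
RHOXF1 probe: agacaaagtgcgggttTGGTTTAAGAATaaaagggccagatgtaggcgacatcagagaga
RHOXF2 probe, last 30 bases: atggggtcagtaagttctcAATAAAaattg
The transcript identifiers that the array design gives for the RHOXF2 probe belong to 2 RefSeq genes, RHOXF2 and its near-identical copy RHOXF2B. The signal of this probe therefore cannot be divided between the copies, and is called RHOXF2 below as in the array design. The RHOXF1 probe matched 1 gene. Levels are compared between arrays for one probe, never between the 2 probes.

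The sequences around the start sites, taken from RefSeq (GRCh38.p14), were compared in windows of 300 bases, with CpG dinucleotides in capitals. The window of RHOXF2 was at chrX:120158363-120158662 on the plus strand, and that of RHOXF1 at chrX:120115864-120116163 on the minus strand.
RHOXF2 promoter: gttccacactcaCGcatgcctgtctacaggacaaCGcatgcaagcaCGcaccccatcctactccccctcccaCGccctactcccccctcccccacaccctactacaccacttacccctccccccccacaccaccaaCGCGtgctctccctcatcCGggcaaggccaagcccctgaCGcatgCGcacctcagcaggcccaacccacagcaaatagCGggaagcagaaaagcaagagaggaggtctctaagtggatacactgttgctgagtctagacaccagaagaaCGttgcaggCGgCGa
RHOXF1 promoter: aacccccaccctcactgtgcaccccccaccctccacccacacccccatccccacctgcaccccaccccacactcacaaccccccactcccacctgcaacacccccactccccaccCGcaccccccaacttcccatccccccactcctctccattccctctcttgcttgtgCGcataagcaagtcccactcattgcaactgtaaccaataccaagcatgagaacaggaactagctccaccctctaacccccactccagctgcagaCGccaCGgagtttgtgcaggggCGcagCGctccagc
The window of RHOXF2B was at chrX:120077641-120077940 on the minus strand and differed from that of RHOXF2 at 0 bases. The RHOXF2 window held 13 CpG sites, with an observed to expected ratio of 0.54. The RHOXF1 window held 6, with a ratio of 0.33. The median over 35116 promoter windows of this length was 14, and 48.3% of them held fewer CpG sites than RHOXF2 and 33.7% fewer than RHOXF1. The 34 windows of 26 neighbouring genes on Xq24 had a median of 24.5 CpG sites. By this count RHOXF2 lay near the median of all windows and RHOXF1 below it.

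Across the series, 45.7% to 52.87% of the probes of an array were well above background, and both RHOXF probes were single spots with no outlier flag and no saturation. The arrays lay on 2 slides. Slide 1 held the mock arrays of control clones 1 and 2, all mock knockdown arrays and the treated arrays of knockdown clones 1 and 3. Slide 2 held the other 5 arrays, among them all treated control arrays. TET1 was lower in mock knockdown clones (3.51 to 3.59 on the centred log2 scale explained next) than in mock control clones (4.23 to 4.67). After 5-aza-dC it was 2.98 to 4.31 and 4.06 to 4.42. The treated array labelled knockdown clone 2, at 4.31, was within the range of the treated controls, and comparisons that rest on it are also given without it. Of 10 markers of colorectal epithelium, KRT8, KRT18, KRT20, CDX1 and CDX2 were well above background on every array, whereas CDH1 and LGALS4 were on none. PTPRC, a leukocyte marker, was well above background on every array in both mock (0.21 to 1.18) and treated cells (0.22 to 0.93).

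RHOXF2 RNA was not detected in mock cells and was abundant in every treated clone. Signals are given as the log2 of the processed signal minus the log2 of the 75th percentile of the same array. On this scale, control clones 1, 2 and 3 had -6.44, -6.54 and -5.95 after mock treatment, and knockdown clones 1, 2 and 3 had -6.12, -6.00 and -6.48. No mock array was well above background, so these 6 values, which lie below the dimmest signal that passed the criterion on the same arrays (-4.38 to -3.72), are not measured levels. After 5-aza-dC, control clones had 5.63, 4.07 and 4.58, and knockdown clones 3.85, 4.92 and 3.86. All 6 treated arrays were well above background, and the lowest of them exceeded the highest mock array by far. In unscaled processed signal, mock spots ranged from 3.45 to 4.69 and treated spots from 5072 to 17539.

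Expressed as a difference of group means, RHOXF2 was 11.07 higher on the log2 scale in treated than in mock control clones (SE 0.42, n = 3 per group). In knockdown clones it was 10.41 higher (SE 0.35, n = 3 per group). Because the mock signal was not well above background, the fold change has only a lower bound, computed against the dimmest signal that counts as well above background on each mock array. The increase was at least 475-fold in control and at least 285-fold in knockdown clones. Among individual clones, the bound was 972, 350 and 316-fold in control clones 1, 2 and 3 and 208, 397 and 282-fold in knockdown clones 1, 2 and 3. In bulk RNA, RHOXF2 transcripts in a few cells and a low level in all cells cannot be told apart, and this holds for the other genes too. Over all probes tested, 3.84% were called higher and 1.37% lower after 5-aza-dC in control clones, and 2.04% higher and 0.0118% lower in knockdown clones (limma, adjusted p under 0.05). These shares stand beside a change that the choice of genes had already used. By measured difference the RHOXF2 probe ranked 1 of 24631 tested in control clones, where the next was a probe named only by a transcript identifier (10.5). In knockdown clones it ranked 2 of 25385, between XAGE1A (10.63) and CTAG1A (10.32), which encode cancer-testis antigens. The mock signal of CTAG1A passed the background criterion on 1 array of 3. For RHOXF2, XAGE1A and the unnamed probe no mock signal passed the criterion, so that their order depends on signals below detection.

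The RHOXF1 probe, unlike the RHOXF2 probe, was well above background in part of the mock clones. As the probes differ, this does not compare the levels of the genes. Mock control clones 1, 2 and 3 had -4.96, -3.80 and -2.52, and clones 2 and 3 were well above background. Mock knockdown clones had -5.65, -5.23 and -3.57, and clone 3 alone was well above background. After 5-aza-dC, the control clones had 1.86, 0.74 and 1.23 and the knockdown clones 1.16, 1.58 and 1.04, all well above background. Mock and treated groups did not overlap. The SD over clones was larger in mock (1.22 in control and 1.10 in knockdown clones) than in treated cells (0.56 and 0.29). The mock SDs include signals not well above background, and are therefore not measured spreads between clones.

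The RHOXF1 difference was 5.04 on the log2 scale in control clones (SE 0.63, n = 3 per group) and 6.08 in knockdown clones (SE 0.54, n = 3 per group). In the 3 clones with a measurable mock signal, the increase was 23.3-fold in control clone 2, 13.4-fold in control clone 3 and 24.5-fold in knockdown clone 3. In the others it was at least 71.3-fold in control clone 1, at least 32.2-fold in knockdown clone 1 and at least 39.3-fold in knockdown clone 2. The probe ranked 94 of 24631 in control and 42 of 25385 in knockdown clones. The group differences and ranks include mock signals not well above background, 1 of 3 in control and 2 of 3 in knockdown clones, and are therefore not exact.

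**Figure D1:**
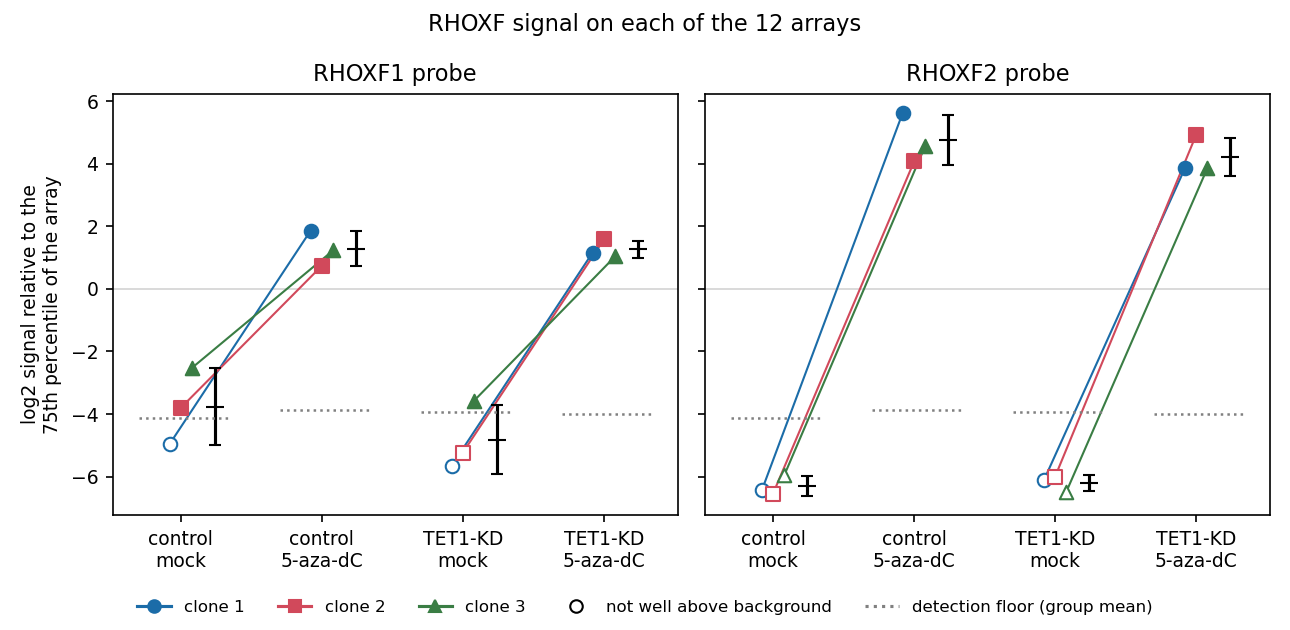
Signal of the RHOXF1 and RHOXF2 probes on the 12 arrays, as log2 relative to the 75th percentile of each array. Each point is 1 array, lines join the mock and treated array of a clone, open points were not well above background, black bars give the mean and SD of 3 clones, and dotted lines give the dimmest signal well above background, averaged over the group. All 6 treated values of RHOXF2 lie between 3.85 and 5.63, and all 6 mock values are open points at or below -5.95.

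Slide and treatment were unequally distributed, and 3 clones had both arrays on one slide. Within slide 1, RHOXF2 was 9.96 higher in treated knockdown clone 1 and 10.34 higher in treated knockdown clone 3. Within slide 2 it was 10.53 higher in treated control clone 3. The clones that crossed slides had 12.07, 10.61 and 10.92. For RHOXF1 the differences within a slide were 6.80, 4.61 and 3.75, and across slides 6.82, 4.54 and 6.81. The increase was thus present within each slide for both members. With slide as a block, the RHOXF1 difference of control clones was 3.80. This value rests on the mock array of control clone 3, the sole mock control array on slide 2.

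The second question was whether TET1 knockdown altered the members, and this was tested with limma over all probes. For RHOXF1 in mock cells, the knockdown mean was -4.82 ± 1.10 and the control mean -3.76 ± 1.22 (SD, n = 3). The difference of -1.06 (SE 0.76, 95% interval -2.88 to 0.77) did not pass (limma adjusted p = 0.593), and the groups overlapped. In an exact permutation test of the 6 arrays p was 0.3, where 3 against 3 arrays cannot give less than 0.10. RHOXF2 was not tested in mock cells, as no array was well above background. Of all probes tested, 0.137% were called in this comparison. With slide as a block the RHOXF1 difference was -0.44 (adjusted p = 0.819), and on slide 1 alone the controls had -4.96 and -3.80 against -5.65, -5.23 and -3.57.

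In treated cells the background was 0.096% of probes called. The RHOXF2 mean was 4.21 ± 0.61 in knockdown and 4.76 ± 0.80 in control clones (SD, n = 3). The difference of -0.55 (SE 0.48, 95% interval -1.71 to 0.60) was within the spread between clones (limma adjusted p = 0.524, exact permutation p = 0.5). It was 0.15 with slide as a block (adjusted p = 0.926) and -0.91 without knockdown clone 2, the array with a TET1 level in the control range (adjusted p = 0.18). With slide as a block, knockdown clone 2 alone was compared with the controls, as the sole treated knockdown array on slide 2. This difference was positive there, and slide and clone cannot be told apart. It was -0.12 without control clone 1 (adjusted p = 0.899) and -0.90 without control clone 2 (adjusted p = 0.483). On slide 2, the sole slide with treated arrays of both clone types, knockdown clone 2 had 4.92, inside the range of the 3 controls. RHOXF1 had 1.26 ± 0.29 and 1.28 ± 0.56 (SD, n = 3), a difference of -0.02 (SE 0.33, 95% interval -0.81 to 0.77, limma adjusted p = 0.98, exact permutation p = 1). It was -0.18 without knockdown clone 2 (adjusted p = 0.707).

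Whether the response to 5-aza-dC differed between clone types was tested as an interaction, for which 0.0367% of 27281 probes were called. The RHOXF2 change was 0.66 smaller in knockdown than in control clones (-0.66, SE 0.58, 95% interval -1.95 to 0.62, limma adjusted p = 1, exact permutation p = 0.4). The RHOXF1 change was 1.04 larger (SE 0.91, 95% interval -0.98 to 3.06, limma adjusted p = 1, exact permutation p = 0.4). For both members the mock values below background enter these differences, and the intervals leave room for differences of more than 1 log2 unit. Without knockdown clone 2 the interaction was -0.92 for RHOXF2 (adjusted p = 0.754) and 0.67 for RHOXF1 (adjusted p = 0.858). Leaving out other clones moved it between -0.93 and -0.16 for RHOXF2, the latter without control clone 1, and between 0.39 (without control clone 3) and 1.93 (without control clone 1) for RHOXF1.

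The relation of RHOXF1 and RHOXF2 over the 6 treated arrays rested on few arrays. Pearson's r was 0.89 (exact permutation p = 0.0167) and Spearman's rho 0.77 (exact permutation p = 0.103). Without the 2 arrays farthest from the median of RHOXF1, r was 0.89 (n = 4), but without the 2 farthest from the median of RHOXF2 it was 0.31 (n = 4), so that the relation rests on these arrays. On slide 2 it was 0.97 (n = 4), and slide 1 held 2 treated arrays. Over all 12 arrays r was 0.963, which mainly restates that both probes are low in mock and high in treated cells.

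The probes around the cluster were examined next. Within 1500000 bases on either side of the RHOXF2 probe lay 68 other probes, of which 49 were bright enough to be tested in control and 52 in knockdown clones. Of these, 3 probes (6.12%) were called higher in control and 2 (3.85%) in knockdown clones, against 3.84% and 2.04% over all probes, and none lower. A probe without a gene name at chrX:118388745-118388804 was called in both clone types, and another at chrX:118208931-118208990 in control clones. Neither was well above background on any mock array, so that they entered the test through their treated arrays. The first was at least 6.42-fold higher in control and at least 9.12-fold in knockdown clones, and the second at least 3.54-fold and at least 4.19-fold (limma adjusted p = 0.0739 in knockdown clones). Another unnamed probe at chrX:118514270-118514329 was at 0.81 on the log2 scale in control clones (limma adjusted p = 0.049) and 0.34 in knockdown clones. The other was 1 of the 2 probes of CT47A11, a cancer-testis antigen gene, which was called in knockdown clones (4.39, limma adjusted p = 0.0221, 1 of 3 mock arrays well above background). In control clones it was not tested, and was at least 7.58-fold higher. Differences between clone types were not tested for these probes. The nearest of them, CT47A11, was 771204 bases from the RHOXF2 probe. These probes were chosen for mention after their values were seen.

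Of 32 named neighbouring genes, each represented by its brightest probe, 28 were tested and 0 passed in either clone type with limma. Without adjustment, p was under 0.05 for 4 higher and 1 lower gene in control clones, and for 1 higher and 0 lower in knockdown clones. The methods' t-test called 0. The median change was 0.11 in control and 0.00 in knockdown clones, against -0.02 and -0.09 over all probes tested. The nearest named genes on the side of RHOXF1 were NKAP, a transcriptional regulator, at 0.00 and -0.05, LOC100506992 at 0.69 and 0.16, and AKAP14, a kinase anchoring protein gene. On the other side were NKAPP1, a pseudogene of NKAP, at 0.05 and -0.10, and ZBTB33, which encodes the methyl-CpG binding protein Kaiso, at -0.27 and -0.27. FAM70A followed. AKAP14 and FAM70A were well above background on 1 array each, and were not tested. Between the 2 members lay 5 further probes without a gene name, and the 1 that could be tested did not pass in either clone type.

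Without control clone 3, 8 of the 28 neighbours were called in control clones, 6 higher and 2 lower, among them CT47A11 (2.13) and GLUD2 (-1.52). With this clone left out, every mock control array was on slide 1 and every treated one on slide 2, so that slide and drug cannot be told apart, and 22.9% of all probes were called.

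**Figure D2:**
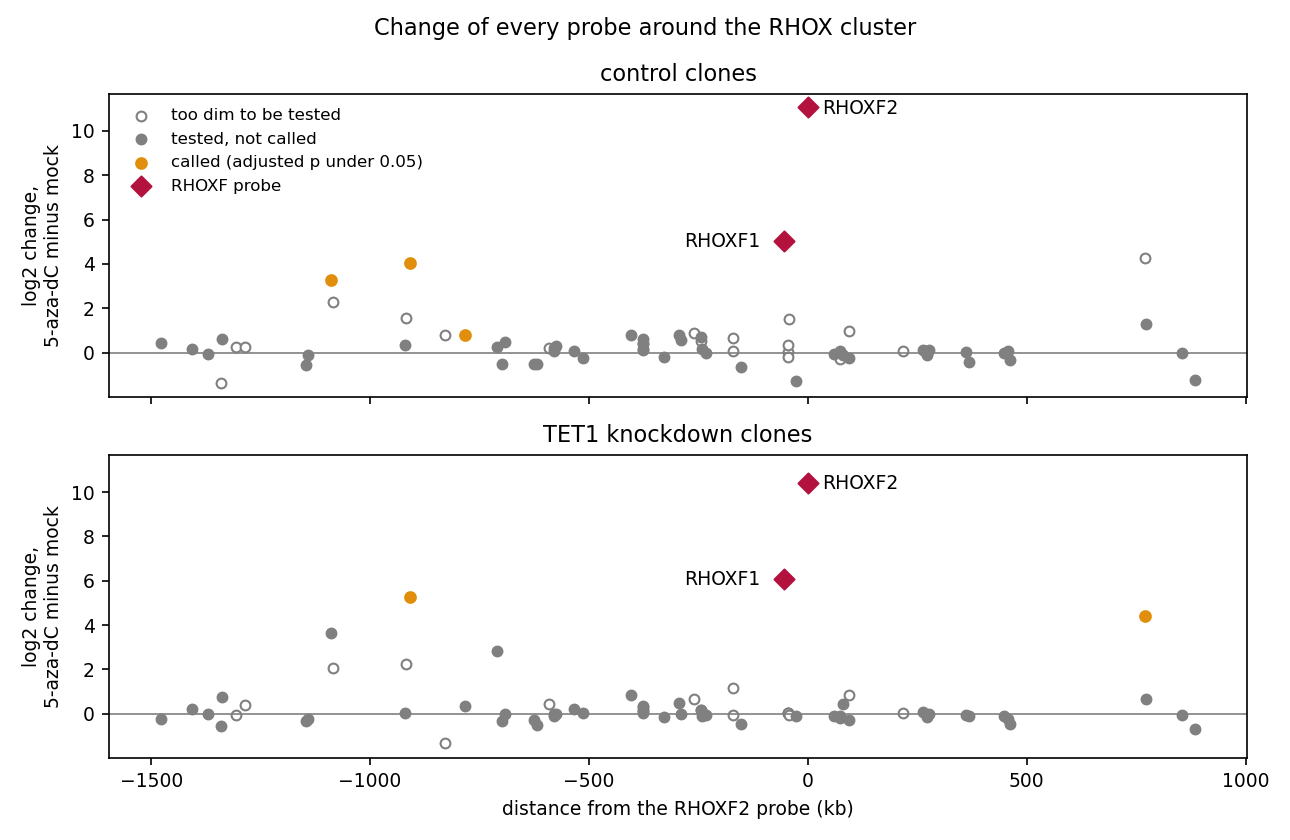
Change of each probe (log2, 5-aza-dC minus mock) against its distance in kb from the RHOXF2 probe, for control clones (top) and knockdown clones (bottom). Diamonds are the RHOXF probes, whose values of 11.07 and 5.04 (top) and 10.41 and 6.08 (bottom) are given without a test, filled grey points were tested and not called, orange points were called and open points were too dim to be tested.

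Other paired-class homeobox genes were called at 5.00% and 9.09% of those tested, against 3.84% and 2.04% of all probes higher in control and knockdown clones. Of 43 with a probe, 20 were tested in control clones, and ISX, an intestinal homeobox gene, rose (1.88, SE 0.39, limma adjusted p = 0.0489), with 1 of 3 mock arrays well above background. On the knockdown arrays ISX was never well above background, and it was not tested there. In knockdown clones 22 were tested and 2 rose. HOPX, an atypical homeodomain protein, rose by 2.35 (SE 0.40, limma adjusted p = 0.0403, 2 of 3 mock arrays well above background). In control clones HOPX was at 0.89 and did not pass (limma adjusted p = 0.347). OTP, known from hypothalamic neurons, was at least 2.73-fold higher (limma adjusted p = 0.0289). It was well above background on no mock array, so that it entered the test through its treated arrays and was bound to be higher. In control clones OTP was well above background on 1 of 3 treated arrays and was not tested. None fell. Without adjustment, p was under 0.05 for 4 higher and 0 lower genes in each clone type, and the methods' t-test called 0. The share of all probes by these 2 criteria is not given here, so that no excess can be read from the counts. The medians of 0.34 and 0.12 were near those of all probes. PAX6 in control clones was at 2.82 and did not pass (adjusted p = 0.117), and 12 of the 43 genes were not well above background on any array. These 3 calls were lost with array-median scaling, quantile normalization or slide as a block, and with any 1 knockdown clone left out for HOPX and OTP. The control call was lost without control clone 1 or 2. Without control clone 3 the count was 6 of 19 tested (4 higher and 2 lower), where 22.9% of all probes were called. Every mock control array was then on slide 1 and every treated one on slide 2, so that slide and drug cannot be told apart.

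Several germline genes elsewhere on the X chromosome moved in the direction of the members. The list left out the MAGE, GAGE, XAGE, PAGE and CTAG families. Of 32 X-linked germline genes with a probe, 13 were tested in control clones. Of these, 8 rose (61.5%, against 3.84% of all probes tested called higher) and 0 fell. In knockdown clones 16 were tested, 10 rose (62.5%, against 2.04%) and 0 fell. Without adjustment, p was under 0.05 for 0 lower genes in both, and the methods' t-test called 2 and 7 genes. TKTL1, a transketolase-like gene, was measured in mock cells and rose by 6.96 and 7.10 in control and knockdown clones (SE 0.55 and 0.38). VCX2, of the VCX family whose copies share sequence, rose by 5.56 and 5.83. FMR1NB, a cancer-testis gene next to FMR1, rose by 5.59 in control clones, with 1 of 3 mock arrays well above background, and was at least 41.5-fold higher in knockdown clones. LUZP4 was undetected in all mock arrays and was at least 8.97-fold and at least 7.89-fold higher. The medians of the genes tested were 3.69 and 3.39, or 2.53 and 1.61 with undetected mock signals set at the detection limit, against -0.02 and -0.09 for all probes. Genes that passed the brightness filter only through their treated arrays were bound to be higher. This was so for 4 of the 8 and 8 of the 10 called, and 11 of the 32 genes were not well above background on any array. FTHL17, a ferritin-like gene, was detected throughout and had 0.02 and -0.23.

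The choice of slide and clones mattered for these counts. In control clones, 2 of 13 X-linked germline genes were called with slide as a block and 0 with clone and slide as blocks. In both settings the change rests on the mock array of control clone 3, the sole mock control array on slide 2. Without control clones 1, 2 and 3, there were 1, 0 and 5 calls. In the last of these settings 22.9% of all probes were called, and slide and drug cannot be told apart. In knockdown clones 10 were called with clone and slide as blocks, but 0, 1 and 0 without knockdown clones 1, 2 and 3. A gene silent in mock cells cannot be well above background on 3 arrays when 4 remain, and was then not tested.

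Germ cell genes on autosomes were the last list. Of 25, 13 were tested in control clones and 6 rose (46.2%, against 3.84% of all probes tested called higher). In knockdown clones 12 were tested and 7 rose (58.3%, against 2.04%). None fell in either clone type, where p without adjustment was under 0.05 for 0 lower genes, and the methods' t-test called 1 and 2. Of the genes called, 4 of 6 and 6 of 7 were well above background on no mock array, and had entered the test through their treated arrays. DAZL, an RNA-binding protein of germ cells, was at least 9.27-fold and at least 34.4-fold higher in control and knockdown clones. MAEL, of the piRNA pathway, rose by 5.64 and 4.90, with 1 of 3 mock arrays well above background in each clone type. SYCP3, of the synaptonemal complex, was at least 4.45-fold and at least 7.77-fold higher. SOHLH1, a transcription factor of spermatogonia and oocytes, rose by 3.87 in control clones (2 of 3 mock arrays well above background) and was at least 10.4-fold higher in knockdown clones. DDX4 (0.40 and 0.37) and ACR (-0.11 and 0.11) did not pass, and PIWIL1, STRA8 and TNP1 were not well above background on any array. The medians were 3.34 and 2.86, or 2.15 and 1.66 with limits, against -0.02 and -0.09 for all probes. With slide as a block 3 were called in control clones, with clone and slide as blocks 0, and with any 1 clone left out 0 in either clone type. With a filter on every array, which admits 3 of these genes, 0 were called in either.

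**Figure D3:**
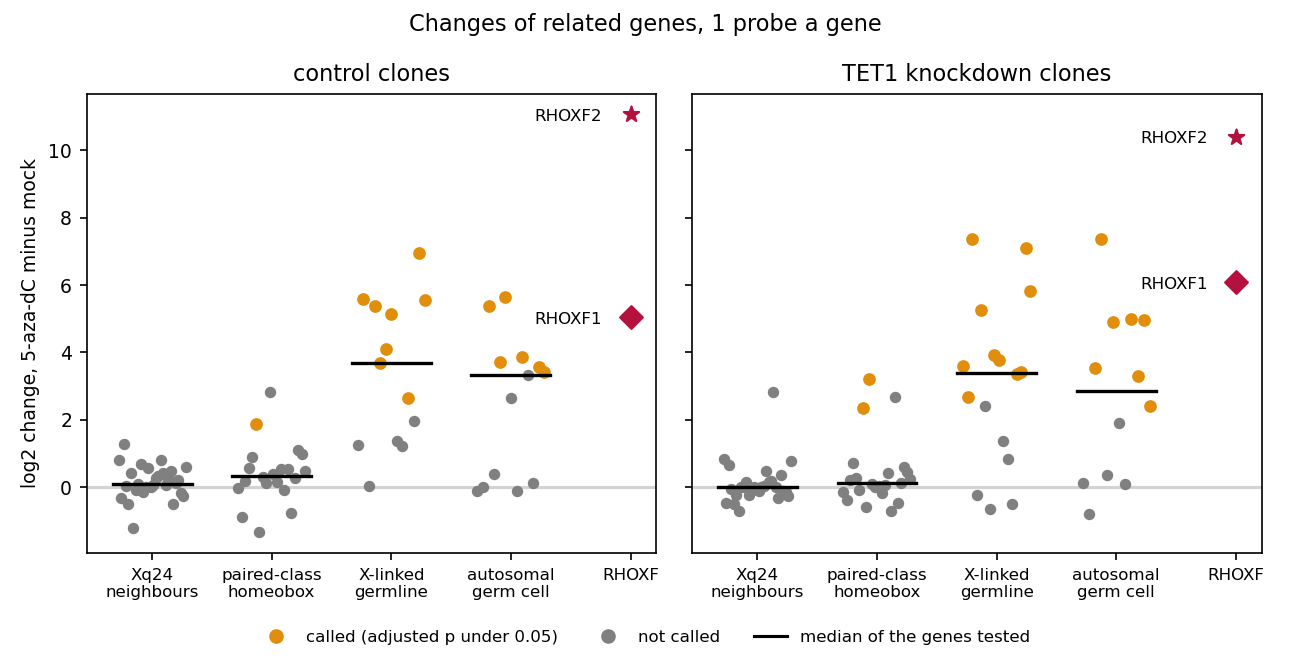
Change of the genes tested in 4 lists (log2, 5-aza-dC minus mock, brightest probe of each gene), with the RHOXF probes at the right, for control and knockdown clones. Each point is a gene, orange points were called by limma and black lines are medians of the genes tested, which were 0.11, 0.34, 3.69 and 3.34 in control and 0.00, 0.12, 3.39 and 2.86 in knockdown clones.

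The cell type markers moved unequally with the treatment. Of 5 Sertoli cell markers, SOX9, WT1 and FSHR were well above background on no array, whereas AMH was on 4 of 6 mock (-4.05 to -1.77) and 6 of 6 treated arrays (-3.81 to -1.55). The summed level of the list was 0.136 to 0.394 in mock and 0.156 to 0.418 in treated arrays, in units of the array's 75th percentile. The summed level of the 25 germ cell genes was 2.00 to 6.44 in mock and 5.86 to 10.9 in treated arrays. Among neuroendocrine markers, ENO2 moved with the treatment on the centred log2 scale (-3.91 to -0.28 in mock and 1.33 to 2.87 in treated arrays). ENO2 was well above background on 5 of 6 mock and 6 of 6 treated arrays. CHGA had -6.57 to -3.06 and -4.88 to 2.27, with ranges that overlapped, and NCAM1 and INSM1 were well above background on no array. The summed epithelial level, to which CDX2 contributed most, was 228 to 647 and 230 to 502. Within this list KRT19 was well above background on 0 of 6 mock (-6.44 to -4.30) and 6 of 6 treated arrays (-2.50 to -0.43), and EPCAM on 4 (-4.78 to -0.91) and 6 (0.10 to 2.16), without overlap. The 4 leukocyte markers summed to 1.34 to 5.51 and 2.56 to 10.68, the 4 fibroblast markers to 0.148 to 0.549 and 0.639 to 1.10, with COL1A2 on no array, and the 3 endothelial markers to 0.156 to 0.327 and 0.0773 to 0.263. The part of these shifts in the RHOXF result was not tested.

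The all-or-none pattern of RHOXF2 was shared by a small set of probes. Of 50451 probes with a usable spot on every array, 235 (0.466%) were below the detection criterion in all 6 mock arrays and well above background in all 6 treated arrays, and 3 had the reverse pattern. On the X chromosome lay 42 of the 234 with a known position (17.9%), against 3.48% of all placed probes. The named genes most like RHOXF2 over the 12 arrays were XIST, the RNA of X inactivation (r = 0.999), DMRTB1, a DM-domain gene of the testis (r = 0.998), LOC100506955 and TDRD1, a tudor-domain gene of the piRNA pathway (both 0.997), and HSPA1A, a heat shock protein, OOEP, an oocyte protein, SP5, a zinc finger factor, and LUZP4 (all 0.996). All 8 were below the criterion in 6 of 6 mock arrays and above it in 6 of 6 treated arrays, and XIST, LOC100506955 and LUZP4 are on the X chromosome. These correlations, ranked over 22750 probes, mostly reflect the step between mock and treated arrays.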

How the data were processed

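Total RNA of 12 cultures was labelled with 1 dye and hybridized to SurePrint G3 Human GE 8x60K version 2 arrays. Per the file headers, the authors scanned the arrays with Agilent Feature Extraction 10.7.3.1 (10.7 in the submitters' processing notes), which gave the deposited intensity of each spot, corrected for background, with its flags and positions on hg19. The deposited series table held the same processed intensity within 0.5% and was used as an alternative. The p-value of each spot against background was deposited too and served only as a description. The number of arrays limits the precision.

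Control spots and outlier spots were left out, spots of a probe averaged, and log2 signals centred on the 75th percentile of each array. A probe was tested if well above background on at least 3 arrays of the fit. Differences were tested with limma 3.58.1 in R 4.3.3, with Benjamini-Hochberg adjustment over all tested probes and a threshold of 0.05, on the arrays of the 2 groups compared, or all 12 for the interaction. Exact permutation tests were two-sided (scipy 1.17.1). Scripts were tested on simulated data. RHOXF members and gene lists were chosen with earlier results of these data known. From each list, the genes with the largest called changes were named (4 up, 2 down), ranked by the larger change of the 2 clone types. Of 40 symbols in the X-linked germline list, which counted older and newer symbols separately, 8 were not on the array. One neuroendocrine marker, and the summed level that includes it, is not reported here.

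Clones of the same number in mock and treated groups were taken as the same clone. Deviations from group means correlated at 0.213 to 0.316 in control and 0.431 to 0.525 in knockdown clones over 27200 probes, each highest with its own number. Whether mock and treated cells were grown in parallel is not given in the sources used here. P-values measure the spread between clones of 1 line. Alternatives were quantile normalization, normexp with offset 50, array-median scaling, the series table, other brightness filters, slide and clone as blocks, all arrays in one fit, the t-test of the study's methods and leaving out each clone.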

Additional observations from a re-analysis of the deposited data

How the results depend on the processing

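The change of both members after 5-aza-dC kept its direction under every alternative that gave a value. It moved by more than the spread between clones with normexp and quantile normalization alone, to 7.03 (control) and 6.66 (knockdown) for RHOXF2 and 3.06 and 3.24 for RHOXF1. This setting adds an offset of 50, and also differs in the spot signal used, background correction and normalization. The part of each was not tested. With each clone left out in turn, RHOXF2 was 10.57 to 11.34 in control and 10.15 to 10.63 in knockdown clones, and RHOXF1 4.14 to 5.68 and 5.70 to 6.80. With clone as a replicate block these changes stayed at 11.07, 10.41, 5.04 and 6.08, and the interactions at -0.66 and 1.04 (adjusted p = 0.974 for both). With clone and slide as blocks they were 10.53, 10.15, 3.75 and 5.71. The values of 10.53 and 3.75 rest on control clone 3, the sole control clone with both arrays on the same slide.

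No difference between clone types passed the threshold under any alternative, with adjusted p of 0.18 to 0.926 for RHOXF2 and 0.645 to 0.99 for RHOXF1 in treated cells, 0.536 to 0.889 for RHOXF1 in mock cells, and 0.754 to 1 and 0.684 to 1 for the interactions. With slide as a block, knockdown clone 2 alone was compared with the treated controls, as the sole treated knockdown array on their slide. The difference in treated cells then turned positive (0.15 for RHOXF2 and 0.31 for RHOXF1). For RHOXF1 it was positive also with quantile normalization (0.01) and normexp (0.04). It ranged from -0.91 to -0.12 for RHOXF2 and from -0.28 to 0.28 for RHOXF1 when 1 clone was left out, for RHOXF1 with positive values of 0.28 without control clone 1, 0.04 without knockdown clone 1 and 0.09 without knockdown clone 3. In mock cells RHOXF1 ranged from -1.66 to -0.64. The interaction ranged from -0.93 to -0.16 for RHOXF2 and from 0.39 to 1.93 for RHOXF1. RHOXF2 could not be tested in mock cells except with no filter or in a fit of all arrays (adjusted p = 0.952 and 0.925), and RHOXF1 not in mock cells without control clones 2 or 3 or knockdown clone 3. With array-median scaling, the members' changes were 10.86 and 10.14 for RHOXF2 and 4.82 and 5.81 for RHOXF1.

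Counts of calls in the lists were less stable. For X-linked germline genes in control clones, 8 of 13 tested became 2 of 6 with a filter on every array and 13 of 18 in one fit of all arrays. They became 2 of 13 with slide as a block, 0 of 13 with clone and slide as blocks and 2 of 13 with the methods' t-test. With a clone left out they were 0 to 5. In knockdown clones, 10 became 2 with a filter on every array and 0 to 1 with a clone left out. For autosomal germ cell genes in control clones, 6 became 0, 3, 0 and 1 with a filter on every array, slide, clone and slide, and the t-test, and in knockdown clones 7 became 4 with normexp, 0 with a filter on every array and 2 with the t-test. Both were 0 with any clone left out. For paired-class homeobox genes, the 1 call in control and the 2 in knockdown clones became 0 with quantile normalization, normexp, array-median scaling, a filter on every array, slide as a block and the t-test. In control clones they were 0 also with no filter and with clone and slide as blocks, and 2 in one fit of all arrays. With a clone left out they ranged from 0 to 6 in control and were 0 in knockdown clones. For the Xq24 neighbours the count was 0 to 8 in control and 0 in knockdown clones with a clone left out, and 1 in knockdown clones with no filter and with clone and slide as blocks. Fewer probes are tested with a filter on every array or 4 arrays. For the other settings the cause was not tested. Without control clone 3, 22.9% of all probes were called in control clones, where slide and drug cannot be told apart. For the other alternatives the share of all probes called is not given here. A change in a list count can therefore not be told apart from a change in calls over all probes.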
